A study of Mus musculus with 12 samples.

Results

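This section describes what was still different from control in N2A cells after depleted Puf60 had been replaced by a Puf60 without exon 5, and what had moved past control. N2A is a mouse neuroblastoma line. The libraries were chosen by their titles: the mEx5 libraries given the Puf60 siRNA and doxycycline (2, called induced here) and the mEx5 libraries given the non-targeting siRNA alone (2, called control), which are 4 of the 12 libraries of the series. Polyadenylated RNA was sequenced from stranded libraries.

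All 12 libraries came from N2A Flp-In cells that carry the rtTA3 transactivator and an integrated, doxycycline-inducible, 3xFlag-tagged Puf60 cDNA that the siRNA cannot target. The cDNA lacks exon 5 in the mEx5 line and holds it in the pEx5 line. Both siRNAs were used at 15 nM. Induced cells received doxycycline at 2 µg/ml for 24 h, and control and knockdown cells (Puf60 siRNA, no doxycycline) received none. Cells were harvested 48 h after transfection. Each genotype is represented by 1 stable line, and the labels do not say whether a line is a clone or a pool. The series describes duplicates A and B as biological, but nothing says that they came from separate cultures, so each p-value reflects only how these samples varied, which may be technical. Doxycycline was never given together with the non-targeting siRNA, so in every induced-against-control difference the drug, the siRNA and the cDNA cannot be told apart. The description field calls the doxycycline libraries uninduced, against the treatment field, which was followed.

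Puf60 binds RNA, resembles the large U2AF subunit, and helps the U2 particle recognise 3′ splice sites with weak polypyrimidine tracts. Its own exon 5 is a cassette exon, so cells make a long and a short Puf60. When such a factor is lost, cassette exons are typically skipped and some introns retained, and re-expression of a resistant cDNA is the usual test of how much of this is reversible.

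The 55-nt stretch of Puf60 that was recoded in the cDNA is shown because it separates the supplied message from the depleted one. It lies in coding sequence of a single exon (mm10 chr15:76070334-76070388, minus strand, GENCODE M21). The 2 versions differ at 7 bases, in capitals, all of them at the wobble position of a codon: G19A, T22C, C25T, G28A, G31A, T34G and T37C, counted from the 5′ end with the endogenous base first.
Puf60 endogenous: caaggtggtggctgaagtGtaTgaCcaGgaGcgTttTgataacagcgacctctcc
Puf60 cDNA: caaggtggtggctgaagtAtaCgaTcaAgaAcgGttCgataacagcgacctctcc

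The exons below carry main splicing results: a pair of exons that moved past control (Elavl2, Cask), an exon that remained lower in this line (Atpbd4, now Dph6) and one skipped only with induction (Neurl4). Capitals mark the 3 bases next to each splice junction. All 4 are coding in GENCODE M21, Dph6 only in some transcripts. They were matched by gene, exon length and both flanking intron lengths, and lie in mm10 at chr4:91254141-91254179, chrX:13552373-13552441, chr2:114523044-114523138 and chr11:69903654-69903719.
Elavl2: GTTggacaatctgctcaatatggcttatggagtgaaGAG
Cask: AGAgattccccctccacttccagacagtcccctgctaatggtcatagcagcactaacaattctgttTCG
Dph6: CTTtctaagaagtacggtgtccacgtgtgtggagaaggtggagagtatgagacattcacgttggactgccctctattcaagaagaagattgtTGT
Neurl4: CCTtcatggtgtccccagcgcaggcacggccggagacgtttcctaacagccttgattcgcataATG

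The libraries held 22908930 to 41494994 exon-exon junction reads, the lowest being mEx5 induced B. The cells carried the markers of their label: 14 of 17 noradrenergic neuroblastoma markers reached 1 RPKM in mEx5 control, and their summed level was 1653 RPKM in mEx5 control and 1445 RPKM in mEx5 induced. Fibroblast, glial, immune and epithelial markers summed to 1.71, 5.13, 0.8 and 0.57 RPKM in control and to 2.27, 4.89, 0.47 and 0.83 RPKM in induced cells, with 1 of 8, 2 of 8, 0 of 6 and 0 of 6 markers at 1 RPKM or more. The 13 mitochondrially encoded mRNAs summed to 51950 RPKM in control, 44404 RPKM in knockdown and 60320 RPKM in induced cells. In bulk RNA, fewer cells of a type and less RNA per cell cannot be told apart.

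Induction put Puf60 back above its control level and almost without exon 5. Puf60 (ENSMUSG00000002524.17) stood at 303 and 305 CPM of junction reads in control libraries A and B, at 75.5 and 72.0 CPM in knockdown and at 625 and 579 CPM in induced libraries. The groups did not overlap, and the induced level was 0.98 ± 0.059 (SE) above control on the log2 scale (limma, adjusted p = 7.55e-10). The group RPKM of the deposited table was 103 in control, 25.2 in knockdown and 202 in induced cells. Exon 5 had a percent spliced in (PSI, the share of reads that support inclusion) of 40.8 and 39.2% in control, 26.1 and 22.8% after knockdown and 6.06 and 7.34% in induced libraries. Its difference of -33.28 points from control (weighted limma, adjusted p = 5.17e-07) includes reads of the cDNA, which lacks the exon and was not separated from the endogenous gene; knockdown alone gave -15.56 points.

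**Figure D1:**
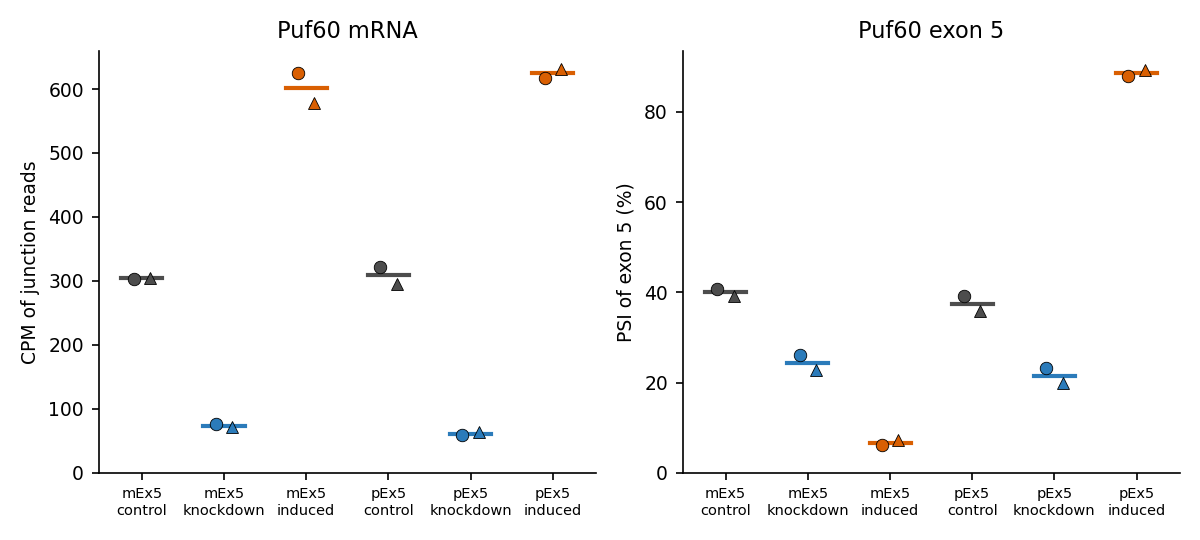
Puf60 CPM of junction reads (left) and PSI of Puf60 exon 5 in percent (right) in each library; circles are library A, triangles library B, and bars are group means. Both induced groups lie above their controls in Puf60 level, while exon 5 is at 6.06 and 7.34% in the mEx5 induced libraries and at 88.0 and 89.4% in the pEx5 induced libraries.

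The first comparison asked which splicing events remained away from control. Most of what the knockdown had moved was back near control: of the 2939 events called on knockdown, 1568 (53.4%) lay within 5 points of control after induction, 763 between 5 and 10 points, and 608 at 10 points or more. The median event had recovered 80.3% of its knockdown change. The events were selected on that change, which also enters the share and can shift it. Calls required an adjusted p under 0.05 in weighted limma (Benjamini-Hochberg over all tested events) together with a shift of 10 or more PSI points. By this rule 318 of 22768 tested events (1.4%) differed between induced and control libraries, against 12.9% between knockdown and control (3.44% higher, 9.47% lower) and 10.4% between induced and knockdown (7.95% higher, 2.45% lower).

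The events still different were mostly skipped exons and retained introns. Of the 318, 195 were lower (0.856% of all tested) and 123 higher (0.54%). Among 8244 exons longer than 27 nt, 172 were lower and 15 higher, and among 280 microexons of up to 27 nt, 14 were lower and 1 higher. Of 8863 introns tested, 102 were higher and 6 lower. When only introns with balanced junction reads were tested, an alternative chosen after seeing the data, 73 events of all types were higher in place of 123, and 178 lower in place of 195. Alternative 3′ and 5′ splice sites gave 5 of 3019 and 3 of 2362.

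The count depends on the fit and on each library. Without control library A it was 66 and without control B 56; without induced A it was 128 and without induced B 112. An unweighted limma fit of the same events called 24, and 7 with no limit on mean PSI. The event at the edge of the rule with the smallest called change was a Ppp2r2d intron at 10.0 points, and the nearest one outside was a Zcchc8 exon at -9.92 points.

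The events were sorted by both differences of this line, which subtract the same 2 control libraries. In 178 events the induced libraries were still called on the side to which the knockdown had moved (135 lower, 43 higher), which is 6.06% of the knockdown calls. Of the 608 knockdown events at 10 points or more from control, 424 were not called after induction. The 6.06% therefore counts only events that passed the test and is not the share left unrescued. The 135 include exon 5 of Puf60, which the cDNA lacks. By type, the events still called away were 5.94% of the exons called on knockdown, 10.3% of the microexons and 8.37% of the introns. Alternative 5′ splice sites had the lowest median recovery of the types, 61.2%, yet only 2.67% were still called away. Against the knockdown libraries, 55 of the 178 were part of the way back, 2 were farther from control than in knockdown, and 121 were not called. Their median recovery was 29.4%, and choosing events still called away from control itself lowers this share. In 6 events the induced libraries lay past control on the opposite side, and 67 events were called with induction and not on knockdown, with a called difference from knockdown as well (39 higher, 28 lower). The other 67 calls met none of these definitions. Fits without 1 control or induced library gave 44 to 84 events still away, 0 to 3 past control and 7 to 23 called with induction only, not all of them the same events.

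**Figure D2:**
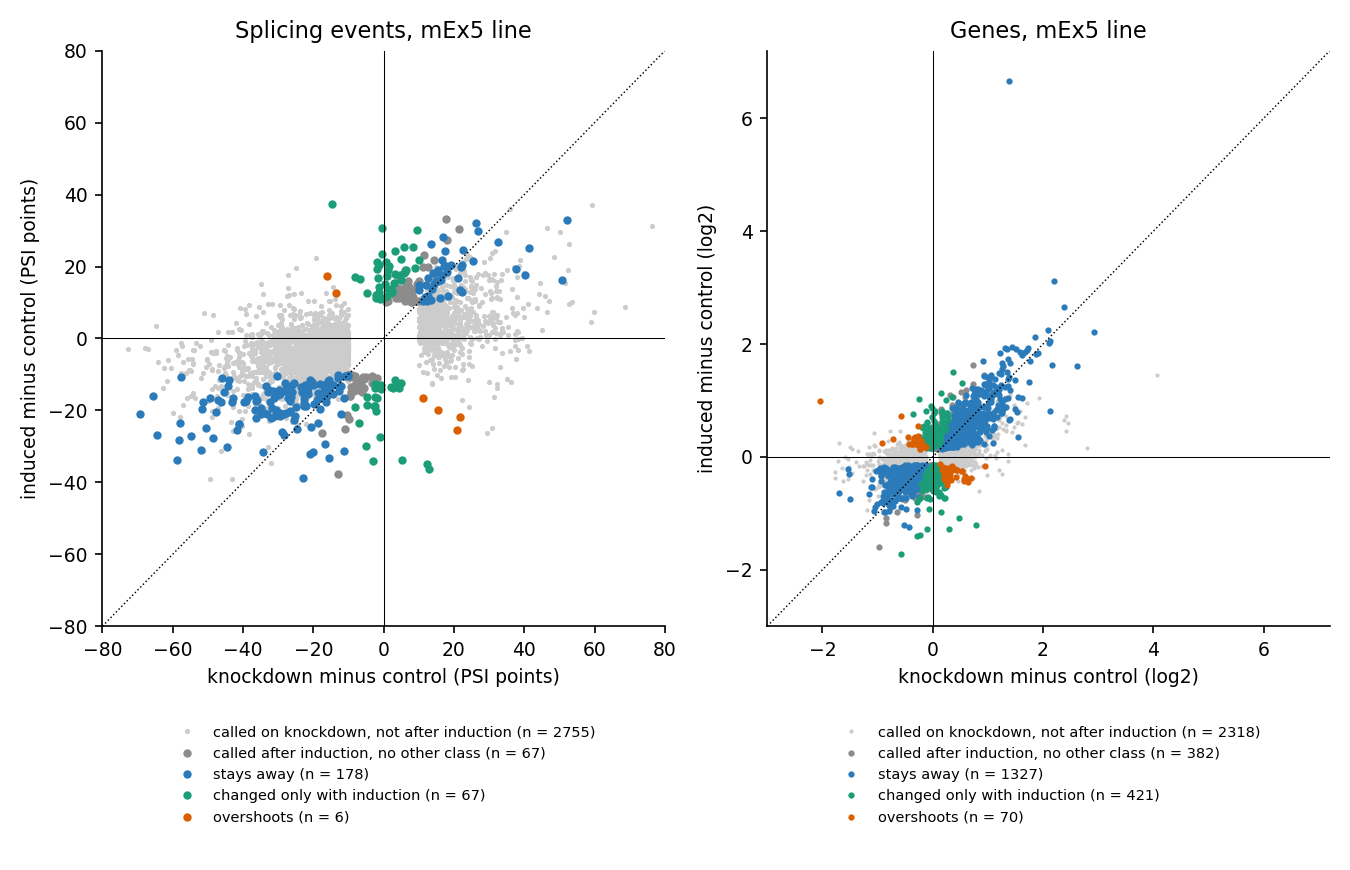
Difference from mEx5 control after knockdown (horizontal) and after induction (vertical) for splicing events in PSI points (left) and genes in log2 units (right), coloured by class; the dotted line marks equal differences. Most events called on knockdown lie close to the horizontal zero line after induction, while 178 events and 1327 genes were called on the same side as in knockdown; both axes subtract the same control libraries.

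Among exons that remained lower, some lay between knockdown and control and others were no nearer to control than in knockdown. A 248-nt exon of Mtap4 (Map4, a microtubule-associated protein; chromosome 9, 109971197 to 109971444 as deposited, assembly not stated) had a PSI of 77.7 and 80.0% in control, 18.5 and 21.4% after knockdown and 47.8 and 42.5% in induced libraries. The induced libraries lay between the other groups, -33.68 points from control (adjusted p = 0.000298) and 25.20 points from knockdown (adjusted p = 7.95e-05; both weighted limma). A 95-nt exon of Crtc1, a CREB coactivator, also lay between the other groups, at 78.7 and 75.8%, 28.3 and 22.04%, and 44.1 and 48.1% in control, knockdown and induced libraries. With induction in pEx5, the Mtap4 and Crtc1 exons were also called lower, at -24.42 and -47.18 points from control. For Crtc1 this was more than the -31.15 points of mEx5.

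In Atpbd4 (Dph6, an enzyme of diphthamide synthesis), the 95-nt exon printed above was lower after induction than in knockdown. Its PSI was 87.6 and 80.2% in control, 73.2 and 71.9% after knockdown and 53.6 and 51.3% in induced libraries. No induced value reached the knockdown range, and the differences were -31.41 points from control and -20.11 points from knockdown (weighted limma, adjusted p = 0.00177 and 0.00419). In the pEx5 line the same exon was at 83.3 and 87.0% in control and 85.8 and 88.4% in induced libraries, and the 2 lines differed by -33.33 points in this contrast (adjusted p = 0.0217), a call that was lost without control A, induced A or induced B.

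Zdhhc18, which encodes a protein palmitoyltransferase, changed at adjacent features that share reads. Its 103-nt exon was at 93.7 and 85.2% in control, 68.8 and 68.2% after knockdown and 59.5 and 55.2% in induced libraries. The 613-nt intron next to it was at 11.5 and 10.6%, 29.6 and 19.4%, and 37.7 and 37.1% in the same order. Both features were farther from control in each induced library than in each knockdown library. The differences between induced and knockdown (-11.18 and 12.97 points) were not called (weighted limma, adjusted p = 0.129 and 0.147).

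The other exons named by size were those of 2010001A14Rik (148 nt, 71.8 and 72.8% in control against 26.8 and 40.3% in induced libraries), Fam18a (Tvp23a, 145 nt, 93.5 and 90.1% against 66.3 and 54.3%) and Aarsd1 (54 nt, 80.2 and 84.6% against 52.3 and 49.4%). Control and induced libraries did not overlap in any of the 3. They rest on 38 to 98 reads per library. Exon 5 of Puf60 is also named as remaining lower, but the cDNA lacks it and reads of the cDNA were not separated. Its low value after induction therefore cannot show a lack of rescue. Of the 8 exons named as remaining lower, those of Puf60, Mtap4, Atpbd4 and Zdhhc18 stayed called when any 1 control or induced library was left out. The other 4 lost their call in at least 2 of these 4 fits, with adjusted p up to 0.22.

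The features that remained higher were mainly introns, 37 of 43. The exception that led in reads was a 127-nt exon of Uspl1, a SUMO isopeptidase, at 54.5 and 51.8% in control, 85.6 and 85.5% after knockdown and 79.1 and 80.8% in induced libraries. Induced values sat just below the knockdown values, 26.84 points above control (weighted limma, adjusted p = 0.000174), and the exon moved alike in pEx5 cells (43.6 and 40.8% in control, 79.9 and 78.5% in induced).

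A 4146-nt intron of Fnbp1, a membrane-bending F-BAR protein, was at 32.0 and 28.5% in control, 71.4 and 71.6% after knockdown and 57.1 and 53.7% in induced libraries. A 104-nt intron of Polr3gl, a subunit of RNA polymerase III, was at 15.7 and 12.5%, 57.0 and 75.3%, and 48.1 and 45.8%. In both genes the induced libraries lay between control and knockdown. With induction in pEx5 the Fnbp1 intron was called 38.08 points above control, against 25.10 points in mEx5. The Polr3gl intron was not called there (6.27 points).

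In the other introns named, induced libraries were as high as knockdown libraries or higher. The 442-nt intron of Nr2c2ap was at 10.7 and 14.0% in control, 23.2 and 35.1% after knockdown and 37.5 and 43.6% in induced libraries. The 2266-nt intron of Zfp238 (Zbtb18, a transcriptional repressor) was at 21.4 and 28.4% in control and 55.2 and 58.9% in induced libraries. Introns of Mysm1, a histone H2A deubiquitinase, and Trit1, a tRNA-modifying enzyme, were 29.83 and 24.60 points above control. With induction in pEx5 the Mysm1 intron was also called, at 30.13 points, while those of Trit1, Nr2c2ap and Zfp238 were not. Of the 8 features named as remaining higher, only Uspl1 kept its call when any 1 control or induced library was left out; the introns lost it in at least 1 of these fits, with adjusted p up to 0.278.

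The second comparison asked what overshot. The 6 events were all cassette exons, 4 lower and 2 higher, and the 4 named are described in full. The 39-nt exon of Elavl2, a neuronal RNA-binding protein, fell on knockdown and rose past control: its PSI was 40.9 and 40.4% in control, 26.1 and 22.9% after knockdown and 60.8 and 55.4% in induced libraries. The 3 groups did not overlap, and the induced libraries stood 17.48 points above control (adjusted p = 0.00492) and 33.59 points above knockdown (adjusted p = 2.96e-06; both weighted limma). In the pEx5 line the same exon stayed low with induction, at 22.9 and 22% against 37.1 and 40.1% in control, and the lines differed by 33.66 points (adjusted p = 0.000949).

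The remaining named exons rose on knockdown and fell below control. A 57-nt exon of Eif4g1, a translation initiation scaffold, was at 74.4 and 70.5% in control, 91.5 and 84.4% after knockdown and 53.8 and 51.2% in induced libraries. A 195-nt exon of Ccdc136 was at 54.5 and 63.1%, 79.8 and 79.7%, and 37.2 and 29.4%. The 69-nt exon of Cask, a synaptic scaffold of the membrane-associated guanylate kinase family, was at 68.1 and 65.1%, 76.0 and 79.5%, and 51.8 and 48.4%. In each of the 3 exons every induced value lay below every control value.

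The pEx5 values of these 3 exons were not alike. Cask in pEx5 cells also fell with induction, from 70.0 and 76.6% to 58.5 and 60.3%, and the difference between the lines was -2.56 points (weighted limma, adjusted p = 0.952). Ccdc136 was at 63.1 and 51.5% in pEx5 control and 69.1 and 71.3% in pEx5 induced libraries, a difference between lines of -38.34 points (adjusted p = 0.0314) that was lost without any 1 of the mEx5 control or induced libraries. For Eif4g1 the difference between lines was -23.05 points (adjusted p = 0.0502). None of the 4 overshooting exons named kept its call through all 4 fits that left out 1 control or induced library: Elavl2 lost it without induced A and without control B, and the others in all 4, with adjusted p up to 0.224.

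Events called with induction and not on knockdown comprised 30 retained introns in 24 genes and 24 skipped exons in 21 genes, among others. The introns were short: their median length was 133.5 nt against 648 nt for all introns tested, and 50% were at most 120 nt long against 15.3% of all tested. Introns that remained higher after a knockdown rise had a median of 989 nt. An 87-nt intron of Lrdd, which encodes the p53-induced death domain protein, was at 6.45 and 5.26% in control, 4.88 and 5.62% after knockdown and 35 and 37.9% in induced libraries. A 199-nt intron of Mapk11, a p38 kinase, was at 40.5 and 41.1%, 56.2 and 44.6%, and 77.6 and 64.4%. In both, the induced libraries were above all others of the line. In pEx5 induced libraries the Lrdd intron was at 5.41 and 6.52%, but the difference between the lines was not called (weighted limma, adjusted p = 0.126).

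A 149-nt intron of Plxna3, a semaphorin receptor, was at 27.2 and 27.8% in control and 48.1 and 57.9% in induced libraries. In the opposite direction, a 698-nt intron of Arpp21 was at 83.9 and 80.6% in control, 90.2 and 100% after knockdown and 43.4 and 48.2% in induced libraries, on 20 to 65 reads. The 66-nt exon of Neurl4 was at 89.6 and 85.2% in control, 85.8 and 78.7% after knockdown and 51.9 and 63.0% in induced libraries. It was at -29.95 points from control (weighted limma, adjusted p = 0.00384) and did not overlap the other groups.

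Exons of E130307A14Rik (132 nt) and 2010001A14Rik (86 nt, a second exon of this gene), and a second exon of Ccdc136 (171 nt), were at -34.15, -27.50 and -34.79 points from control. With induction in pEx5 the E130307A14Rik exon was also called lower, at -26.6 points. The other exons were not called there, at -13.6 and 0.02 points. None of the 8 events of this group kept its call through all 4 fits without 1 control or induced library; adjusted p reached 0.224.

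**Figure D3:**
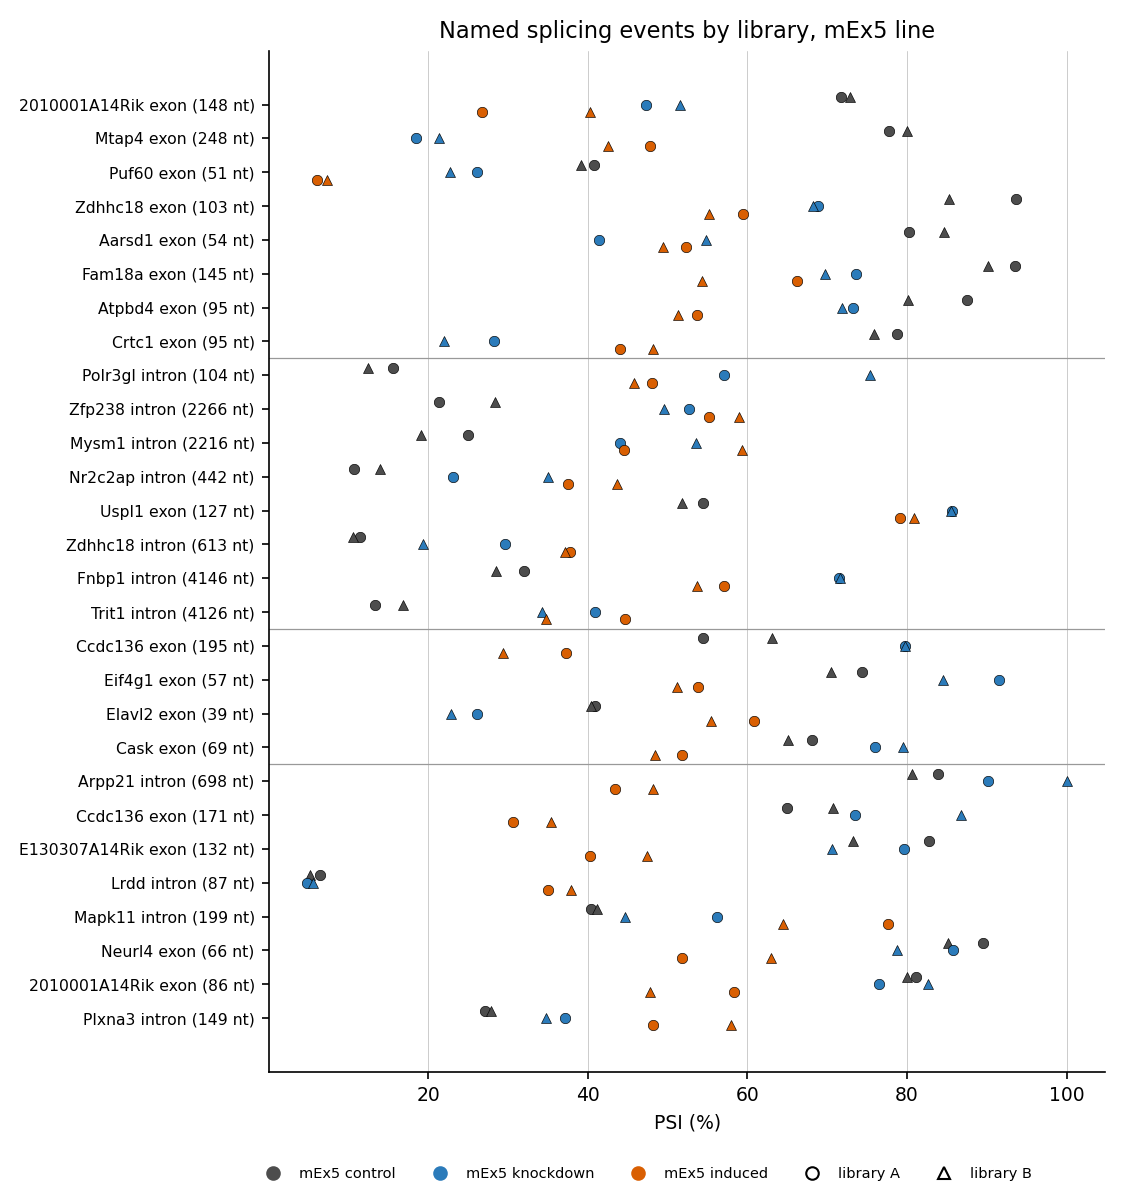
PSI in percent of the named splicing events in each mEx5 library; grey is control, blue knockdown and orange induced, circles are library A and triangles library B, and horizontal lines separate events that remained lower, remained higher, overshot, and changed with induction only. In Elavl2, induced values of 60.8 and 55.4% lie above controls of 40.9 and 40.4%, while in Lrdd they lie at 35 and 37.9% with all other libraries under 10%.

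The pEx5 line has its own control libraries, so its differences subtract other samples than those of these classes. Its libraries still entered the read and PSI filters and the estimate of spread behind the mEx5 calls. In this line 767 events (3.37%) were called between induced and control, 2.23% lower and 1.14% higher. Of the 135 events that remained lower in mEx5, 55 were also called lower in pEx5 and 124 had the same sign, with a median size of 16.61 points in mEx5 and 9.11 points in pEx5. Of the 43 that remained higher, 14 were called and all 43 had the same sign. Of the 67 changed with induction only, 5 were called in pEx5 with the same sign. The sign itself was the same in 31 of the 39 higher and 14 of the 28 lower events. The test of the difference between the lines called 118 events (0.518%; 0.321% higher and 0.198% lower in mEx5 relative to pEx5). The classes were chosen on the mEx5 change that this test contains. Among the events that remained lower it called 9, of which 8 were larger in mEx5, and among those that remained higher it called 0, with 2628 of all 22768 events at an unadjusted p under 0.05. Among those changed with induction only, it called 3 of the 39 higher and 1 of the 28 lower. An unweighted fit called 2 events between the lines.

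In the line comparison, 93 of the 118 events were nearer to control in mEx5 and 25 farther. The largest differences between lines, after Puf60 exon 5, were in Tnip1, Vkorc1l1, Pstk, Sept8 and Ccdc136; those of Pstk and Sept8 were called without any 1 mEx5 control or induced library, and those of the other 3 were not. A 295-nt exon of Pstk, which encodes the kinase of the selenocysteine pathway, was at 40.9 and 41.4% in mEx5 control and 51.7 and 55.6% in mEx5 induced libraries, a difference of 12.48 points (adjusted p = 0.0844). In pEx5 it was at 43.3 and 48.0% in control and 17.0 and 13.1% in induced libraries, and the lines differed by 43.06 points (weighted limma, adjusted p = 0.00147). An alternative 3′ splice site of the septin gene Sept8 was at 60.7 and 63.6% against 49.4 and 54.8% in mEx5, and 64.6 and 60.4% against 11.9 and 13.2% in pEx5.

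Among 619 tested events in 220 genes of the lists examined, 16 in 13 genes were called (2.58%, against 1.4% of all events), counting exon 5 of Puf60. In Mdm2, whose product ubiquitinates p53, an 85-nt exon was -26.86 points from control after induction and -64.45 points in knockdown. Exons of Ptbp2 and Rbfox2, a pair of neural splicing regulators, were -13.26 and -12.92 points from control after -44.39 and -26.17 points in knockdown. The 73-nt exon of Hnrnpa2b1 was at -12.55 and an exon of the sterol enzyme Hsd17b7 at -20.60 points. A 1476-nt intron of E2f1, a cell cycle transcription factor, was 13.35 points higher. All of these were called in weighted limma (adjusted p = 0.000346 to 0.0404).

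Of 69 tested events in 16 synaptic vesicle genes, 6 were called, all in Syn2, Bin1 and Slc18a2. A 253-nt exon of Syn2, a synapsin, was -16.04 points from control after induction and -65.49 points in knockdown, and Bin1 had a 108-nt exon and a 24-nt microexon at -14.74 and -14.70 points. Slc18a2, the vesicular monoamine transporter, had 3 introns that were 18.38, 14.43 and 14.04 points higher, and differed from control by 6.14, -1.23 and 4.0 points in knockdown. Its junction reads lie across these introns. They fell from 153 and 145 CPM in control to 84.8 and 95.6 CPM in induced libraries (-0.73 ± 0.059, limma adjusted p = 5.17e-08). The part of intron retention in this fall was not tested.

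The same comparison was made for mRNA levels. Junction reads summed per gene differed between induced and control in 2200 of 10363 genes (21.2%; limma, adjusted p under 0.05), 1086 higher (10.5%) and 1114 lower (10.7%), with a median log2 change over all genes of -0.0018. The knockdown gave 35.8%, induced against knockdown 25.7%. In 1327 genes the induced libraries were called on the same side as the knockdown (719 higher, 608 lower), in 70 on the opposite side (29 higher, 41 lower), and 421 were called with induction and not on knockdown (157 higher, 264 lower). Of the 1327, 1021 did not pass the test against knockdown, 221 were part of the way back and 85 were farther away. A change of at least 2-fold was seen in 84 of the 719 and 2 of the 608. Without control A the count of called genes was 1190, without control B 1259 and without induced B 1411.

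The genes that remained lower by the largest amounts included sterol genes. Tm7sf2, a sterol reductase, was at 8.23 and 7.71 CPM in control, 5.84 and 5.98 CPM in knockdown and 3.62 and 3.03 CPM in induced libraries. Insig1, which holds the sterol sensor of the SREBP pathway in the endoplasmic reticulum, was at 14.6 and 11.8, 9.61 and 8.57, and 5.48 and 5.75 CPM. Both were lower in every induced than in every knockdown library, at -1.25 ± 0.131 and -1.21 ± 0.126 from control on the log2 scale (limma, adjusted p = 1.4e-06 and 1.2e-06). The group RPKM of the deposited table was 36.3 in control, 20.7 in knockdown and 15.9 in induced cells for Insig1, but 16.3, 10.2 and 11.2 for Tm7sf2, so that by RPKM the induced level of Tm7sf2 was not below that of knockdown.

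Tmeff1, which encodes a transmembrane protein, was at 124 and 122 CPM in control, 58.6 and 59.3 CPM in knockdown and 65.04 and 60.98 CPM in induced libraries. Its difference from knockdown after induction was 0.10 (limma, adjusted p = 0.247), and from control -0.96 ± 0.058 (adjusted p = 7.07e-10). Rab32, a small GTPase, and Slc26a4, an anion transporter, fell by 0.97 and 0.93. Taz, which encodes tafazzin, an enzyme of cardiolipin remodelling, was at 19.8 and 18.8 CPM in control and 10.9 and 9.25 CPM in induced libraries, while the pEx5 libraries were at 20.7 and 21.7 CPM in control and 21.7 and 21.6 CPM in induced. The lines differed by -0.97 in this gene (limma, adjusted p = 0.00072).

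A pair of the named genes was less certain. Dhx58, a sensor of viral RNA, fell by 0.97 on as few as 17 reads and lost its call without control A, control B or induced B. Zfp238 fell by 0.95 in junction reads, which lie across its retained intron, while its group RPKM in the deposited table was 60.0 in control and 73.0 in induced cells; it lost its call without any 1 of the control or induced libraries (adjusted p up to 0.11).

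Gpr56 (Adgrg1, an adhesion G protein-coupled receptor; ENSMUSG00000031785.16) had the largest change of all genes tested. It was at 0.261 and 0.212 CPM in control, 0.613 and 0.849 CPM in knockdown and 31.5 and 29.9 CPM in induced libraries. The groups did not overlap, and the fitted change was 6.67 ± 0.464 from control and 5.28 from knockdown (limma, adjusted p = 4.25e-09 and 1.08e-07). The group RPKM was 0.15 in control, 0.24 in knockdown and 7.55 in induced cells. In pEx5 it was at 0.369 and 0.028 CPM in control and 11.7 and 9.94 CPM in induced libraries, and the difference between lines was 0.82 (adjusted p = 0.557). The control values rest on as few as 7 reads, so the fitted change depends on the prior count of 2 reads.

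The other genes that remained higher with the largest changes had control levels under 3 CPM and were already higher in knockdown. Cdsn (corneodesmosin, an adhesion protein) was at 0.409 and 0.484 CPM in control, 2.19 and 2.36 CPM in knockdown and 4.34 and 4.47 CPM in induced libraries. Cd59a, an inhibitor of complement, was at 1.27 and 1.84, 6.45 and 7.09, and 6.85 and 8.22 CPM. Slamf9 was at 2.12 and 2.60, 9.07 and 11.7, and 10.5 and 8.95 CPM. Only Cdsn had induced values above its knockdown values by a called amount (0.93, limma adjusted p = 0.0248). Fam186b, Phex, Sprr2f and 1700013F07Rik changed by 2.66, 2.21, 2.13 and 2.06, on as few as 4 reads in a control library. Phex lost its call without control A or induced A (adjusted p up to 0.0598), while the other 7 kept it when any 1 control or induced library was left out.

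Genes that overshot did so by less than 2-fold. Rec8, a meiotic cohesin subunit, was at 59.6 and 59.7 CPM in control, 45.9 and 53.02 CPM in knockdown and 90.0 and 83.9 CPM in induced libraries, and Ak5, an adenylate kinase, at 4.95 and 4.54, 3.71 and 2.70, and 7.27 and 8.44 CPM. Both rose past control, by 0.54 ± 0.077 and 0.72 ± 0.211 (limma, adjusted p = 4.71e-05 and 0.0198). In the opposite direction Ddx39, an RNA helicase of mRNA export, was at 309 and 305 CPM in control, 360 and 371 CPM in knockdown and 225 and 212 CPM in induced libraries (-0.49 ± 0.049, adjusted p = 7e-07).

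Mus81, Pif1 and Parp3 act in DNA repair and replication, and they fell below control after a rise on knockdown. Mus81 was at 29.8 and 33.3 CPM in control and 21.5 and 24.8 CPM in induced libraries, Pif1 at 17.2 and 19.6 against 14.4 and 12.5 CPM, and Parp3 at 12.3 and 10.9 against 8.93 and 8.31 CPM. Cxxc1, a CpG-binding subunit of a histone methyltransferase complex, and Upp1, uridine phosphorylase, fell by 0.42 and 0.41, though the group RPKM of Upp1 was 2.98 in control and 2.89 in induced cells. Of the 8 overshooting genes named, Rec8, Ddx39, Mus81 and Cxxc1 kept their call when any 1 control or induced library was left out. The others lost it in at least 2 of these fits (adjusted p up to 0.212). Ddx39, Mus81, Parp3 and Cxxc1 also differed between the lines (-0.39, -0.46, -0.91 and -0.33; limma, adjusted p = 0.00372, 0.036, 0.0019 and 0.0443); without 1 mEx5 library the calls of Mus81 and Cxxc1 were lost.

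Among genes called with induction and not on knockdown, Serpinh1, a collagen chaperone, was the best measured of those named. It was at 2.53 and 3.24 CPM in control, 4.001 and 4.357 CPM in knockdown and 7.30 and 7.12 CPM in induced libraries (1.31 ± 0.248, limma adjusted p = 0.000828). A330050F15Rik (Akain1) rose by 1.51, from 0.372 and 0.333 to 1.27 and 0.98 CPM, on as few as 10 reads. Its group RPKM was 0.96 in control, 1.69 in knockdown and 1.69 in induced cells, so by RPKM it was as high in knockdown. Naprt1, Stap2, D730048I06Rik, Pfn4, Neil2 and Ccdc110 fell by 1.20 to 1.72 from levels under 2 CPM, on as few as 4 reads, and each lost its call in at least 1 fit without a control or induced library (adjusted p up to 0.284).

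**Figure D4:**
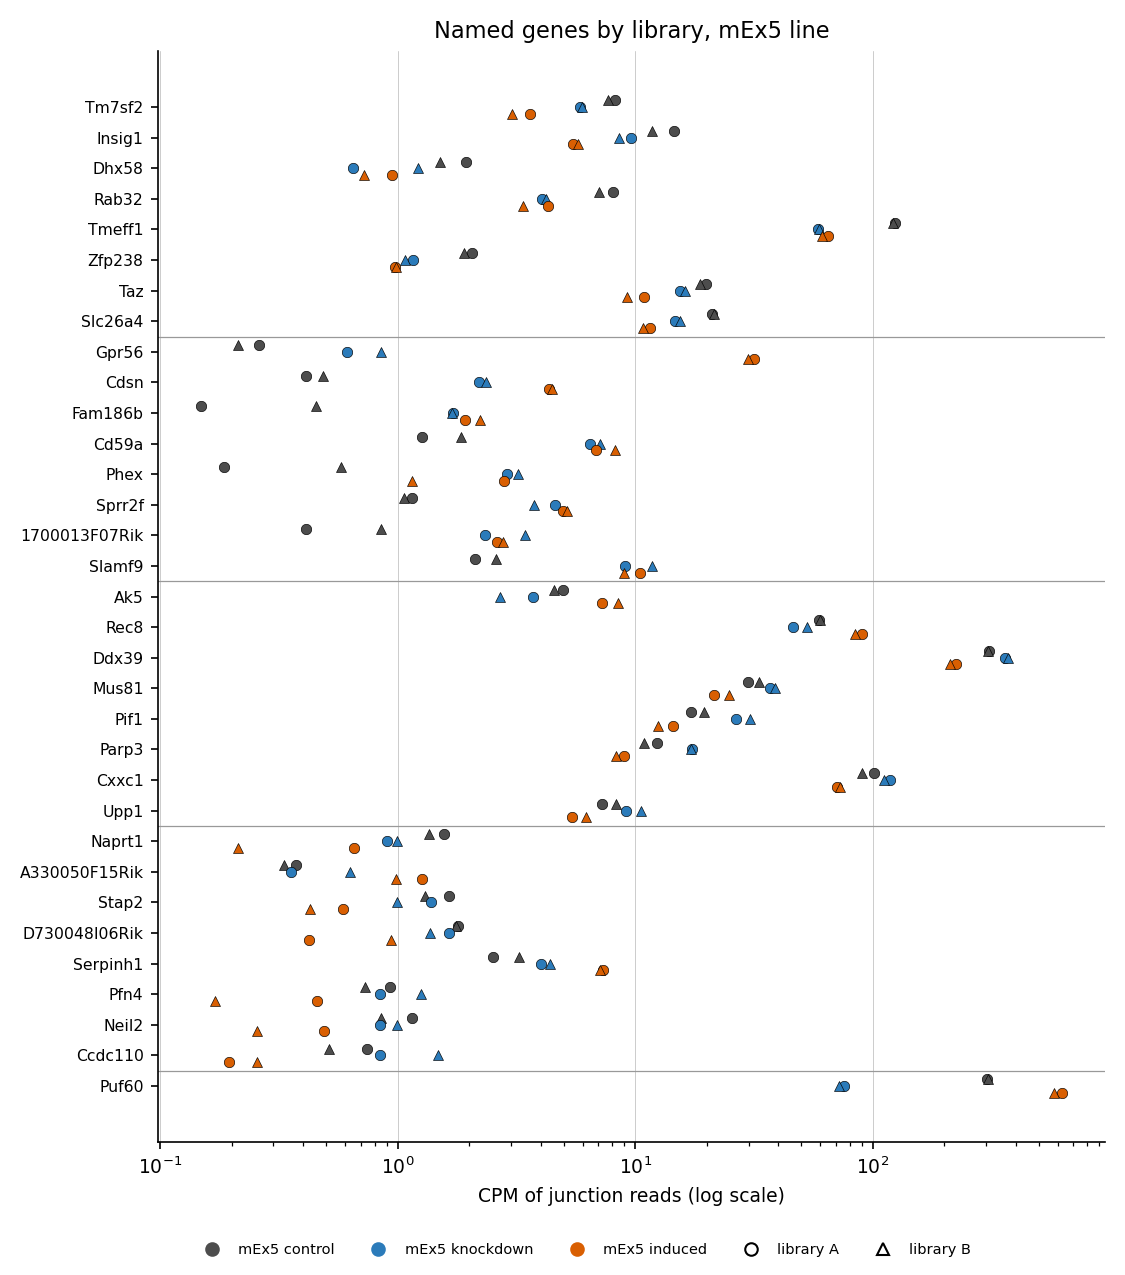
CPM of junction reads (log scale) of the named genes in each mEx5 library; grey is control, blue knockdown and orange induced, circles are library A and triangles library B, and horizontal lines separate genes that remained lower, remained higher, overshot, changed with induction only, and Puf60. Gpr56 goes from 0.261 and 0.212 CPM in control to 31.5 and 29.9 CPM in induced libraries.

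In pEx5 cells 3017 genes (29.1%) were called between induced and control, 15.6% higher and 13.5% lower. Of the 719 genes that remained higher in mEx5, 529 were called higher in pEx5, and of the 608 that remained lower, 410 were called lower. Of the 41 that overshot downwards 1 was called lower in pEx5, and of the 264 that fell with induction only 63 were. The test of the difference between the lines called 443 of all genes (4.27%; 1.51% higher and 2.77% lower in mEx5 relative to pEx5), among them 22 of these 41 and 63 of these 264. The classes were chosen on the mEx5 change that this test contains, so those counts describe the members and are not evidence of a difference between the lines. Without control A the count of genes that differed between the lines was 121, without control B 145 and without induced B 262.

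Genes of the integrated stress response, through which ATF4 raises amino acid transport, amino acid synthesis and tRNA charging, were nearly all above control. Of 31 measured members 29 rose (10.5% of all genes rose) and 0 fell, with a median change of 0.67 against -0.0018 over all genes tested. Trib3, a pseudokinase target of ATF4, was at 29.0 and 27.8 CPM in control, 66.4 and 69.2 CPM in knockdown and 84.4 and 97.0 CPM in induced libraries (1.67 ± 0.077, limma adjusted p = 2.66e-11). The cystine transporter Slc7a11 was at 8.90 and 10.1, 21.8 and 24.6, and 26.86 and 31.75 CPM, and the cytokine Gdf15 at 7.85 and 8.05, 18.7 and 18.3, and 21.8 and 23.2 CPM. In all 3 the induced libraries were above the knockdown libraries, which were above control.

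The transcription factors of the response were among the genes that rose. Ddit3 was at 46.9 and 46.4 CPM in control and 121 and 115 CPM in induced libraries, Atf4 at 464 and 442 against 606 and 602 CPM, and Atf3 at 5.14 and 4.51 against 10.3 and 8.82 CPM. Chac1 and Sesn2 rose by 0.98 and 0.96. Asparagine synthetase Asns was at 1743 and 1696 CPM in control and 2291 and 2227 CPM in induced libraries. Psat1 and Slc3a2 were the 2 members that did not pass, at 0.02 each.

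The list was also higher on knockdown and in the other line. On knockdown 25 of 31 rose and 2 fell (17.9% of all genes in each direction), with a median of 0.39. From knockdown to induced 17 rose further and 0 fell (13.2% and 12.6% of all genes). In pEx5 25 rose and 0 fell (15.6% and 13.5% of all genes), with a median of 0.38. The lines differed in 8 members, all with the larger rise in mEx5: Trib3, Ddit3, Atf4, Chac1, Gdf15, Sesn2, Ppp1r15a and Mthfd2. The calls of Trib3, Ddit3 and Atf4 held without any 1 mEx5 control or induced library, that of Chac1 was lost without control A, and those of the other 4 were lost in 3 of these 4 fits. Atf4, for example, changed by 0.42 in mEx5 and 0.05 in pEx5 (limma test of the difference, adjusted p = 0.00419). The mitochondrially encoded sums given above moved with these genes in the induced group and fell in the knockdown group; their part in the result was not tested.

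Genes of cholesterol synthesis and uptake were lower. Of 21 measured, 0 rose and 18 fell (10.7% of all genes fell), with a median of -0.37. Tm7sf2 and Insig1, described above, had the largest changes of the list. Mvk, Nsdhl, Stard4, Idi1 and Mvd fell by 0.57, 0.54, 0.52, 0.48 and 0.44. Ebp, Fdft1 and Sc5d did not pass, at -0.08, -0.13 and -0.15.

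Fewer of these genes were called on knockdown than with induction, and the part of doxycycline in this was not tested. On knockdown 9 of 21 fell and 0 rose, with a median of -0.13 (17.9% of all genes fell). From knockdown to induced 10 fell and 0 rose (12.6% of all genes fell). With induction in pEx5, 13.5% of all genes fell. In pEx5 17 fell, with a median of -0.43, and 1 member, Lss, differed between the lines, with the smaller change in mEx5 (-0.21 against -0.55, limma adjusted p = 0.0357; lost without control A, control B or induced B).

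S-phase genes remained partly lower. Of 34 measured, 19 fell and 0 rose, with a median of -0.21 (10.7% of all genes fell), after 27 had fallen on knockdown with a median of -0.26 (17.9% of all genes fell). E2f1 was at 60.6 and 55.9 CPM in control, 26.3 and 31.5 CPM in knockdown and 34.8 and 30.6 CPM in induced libraries. The change from control was -0.83 ± 0.096 (limma, adjusted p = 4e-06). These junction reads lie across the retained intron named above, and its part in the fall was not tested. Mcm6, of the replicative helicase, was at 372 and 355, 238 and 225, and 259 and 235 CPM, and the clamp loader subunit Rfc5 fell by 0.56. In both E2f1 and Mcm6 the induced libraries overlapped the knockdown libraries.

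**Figure D5:**
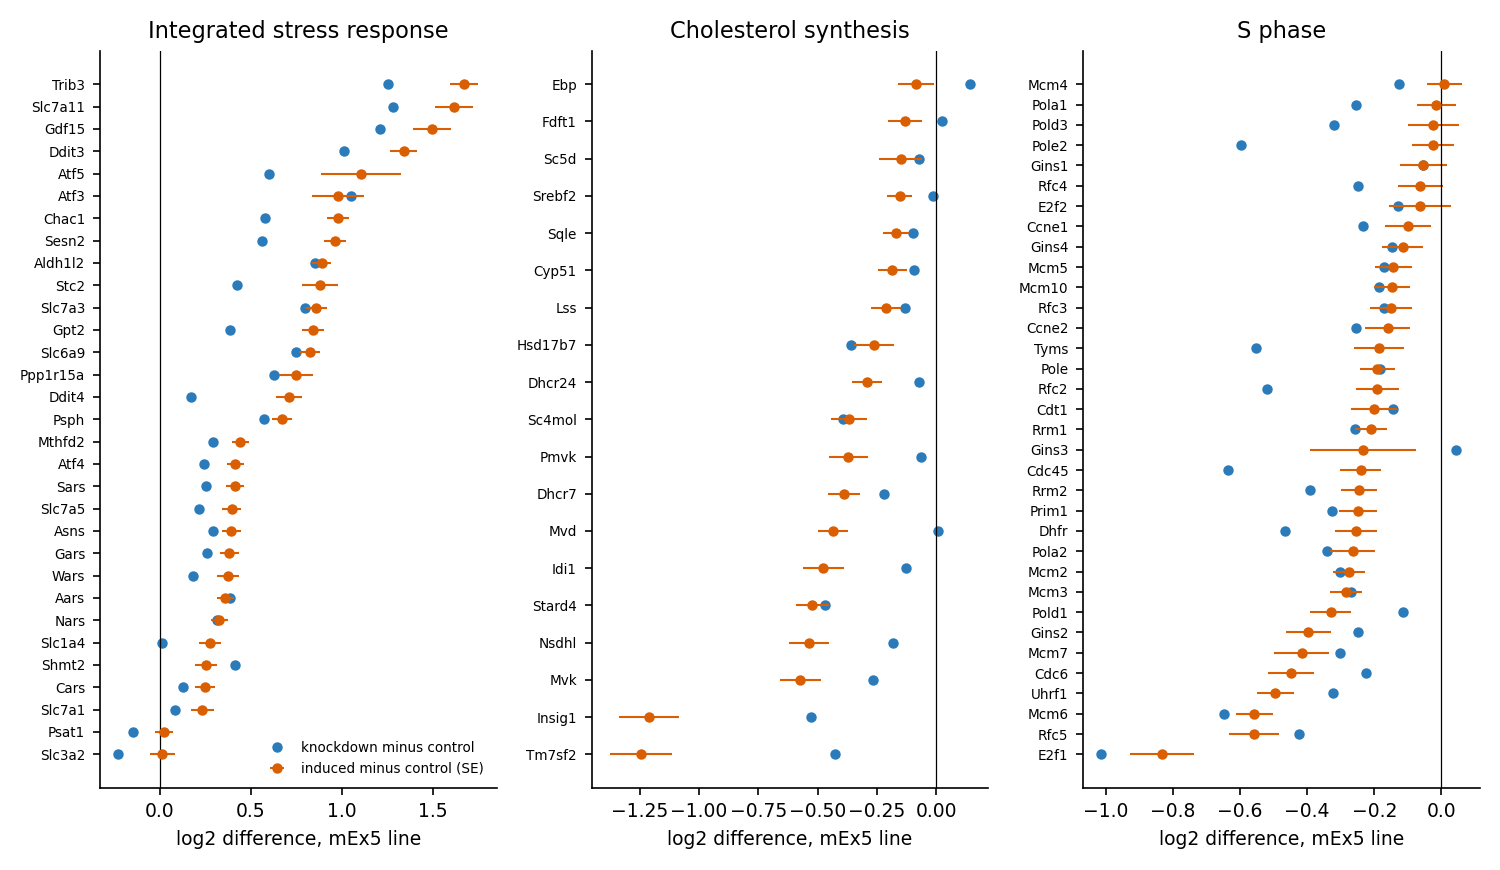
Log2 difference from mEx5 control of genes of 3 lists (integrated stress response, cholesterol synthesis, S phase), with 2 measured cholesterol genes not drawn; orange is induced with its standard error and blue is knockdown. All but Psat1 and Slc3a2 of the stress genes lie well above 0 after induction, and 18 of the 21 measured cholesterol genes and 19 of 34 S-phase genes fell.

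Other stress lists had fewer members called than on knockdown, as had all genes: of the 3715 genes called on knockdown, 2318 (62.4%) were not called after induction. Of all genes, 17.9% rose on knockdown and 12.6% fell from knockdown to induced. After induction 10.5% of all genes were higher than control and 10.7% lower. Of 22 genes of the unfolded protein response 16 had risen on knockdown and 5 were still higher after induction, among them the sensors Atf6 and Ern1 (0.74 and 0.47) and Herpud1 (0.49); 12 fell from knockdown to induced. Of 14 interferon response genes 8 had risen and 2 were still called, Ddx58 and Nmi (0.58 and 0.50). Both lost the call when 1 library was left out, and the group RPKM of Ddx58 was 1.80 in control and 1.33 in induced cells. Of 12 heat shock chaperone genes 5 had risen on knockdown, while 3 were below control after induction, including the regulator Hsf1 and Bag3 (-0.36 and -0.32).

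The next counts stand beside 10.5% of all genes higher and 10.7% lower. Of 18 p53 targets 5 were higher and 0 lower, with a median of 0.13; Sesn2, which is also on the stress list, and Gadd45a rose by 0.96 and 0.53. Of 14 genes of mitochondrial protein quality control 4 were higher and 0 lower, with the protease Lonp1 and the chaperones Hspa9 and Dnaja3 at 0.40, 0.37 and 0.32. Of 58 mitochondrial ribosome genes 3 rose and 9 fell, led by Mrps7 at -0.85 ± 0.068 after -0.79 on knockdown. Of 22 glycolysis and hypoxia genes 6 rose and 5 fell; Vegfa was at 18.95 and 19.24 CPM in control, 20.8 and 18.7 CPM in knockdown and 34.3 and 32.7 CPM in induced libraries.

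Splicing factors changed in both directions, beside 21.2% of all genes called (10.5% higher, 10.7% lower). Of 27 U2 and 3′ splice site factors 4 rose and 6 fell, among them Puf60 itself, Rbm10 (-0.52) and U2af1l4 (-0.37). Of 9 genes with the U2AF homology motif, Puf60 again counted, 2 rose (Puf60 and Rbm39, the latter at 0.26) and 2 fell. Of 17 hnRNP genes 0 rose and 4 fell, led by Hnrpdl (-0.46), and of 12 SR protein genes 0 were called. Of 22 neural splicing regulators 1 rose and 4 fell. Ptbp2, a neuronal polypyrimidine tract-binding protein, was at 118 and 118 CPM in control, 36.78 and 35.45 CPM in knockdown and 71.9 and 80.5 CPM in induced libraries, between the other groups and without overlap, and Elavl4 and Celf3 fell by 0.47 and 0.43. Of 16 nonsense-mediated decay factors 1 rose and 1 fell: Smg6 (0.23) and Upf1 (-0.23), and each lost its call when 1 library was left out.

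Neuronal genes also gave both directions, beside the same 10.5% and 10.7% of all genes. Of 26 synaptic vesicle genes 5 rose and 1 fell: Syn2 was at 46.8 and 47.2 CPM in control, 92.5 and 98.1 CPM in knockdown and 100.3 and 95.3 CPM in induced libraries, beside its skipped exon. Of 15 noradrenergic neuroblastoma markers 1 rose (Gata3, 0.75) and 4 fell, including the neuronal tubulin Tubb3 (-0.42). Of the markers of other cell types, 1 fibroblast, 2 glial and 2 epithelial genes were measured, and none passed. By the deposited group RPKM, which has no replicates, 184 of 12094 genes (1.52%) with at least 1 RPKM in both groups were 2-fold or more higher in induced than in control cells, and 47 (0.389%) were 2-fold or more lower.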

How the data were processed

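The authors deposited a splicing table with a percent value (PSI) and read support for each event in each library; vast-tools is the tool named with it, and its version and the assembly of its coordinates are not given in the sources used here. They also deposited 1 RPKM value per gene and group. Salmon 0.14.1, edgeR and mm10 are named, with no role, per the submitters' processing notes. Of 401633 events 364435 were kept, and 98.89% of PSI values lay within 0.02 points of the ratio of their reads. Events with at least 10 reads in each library and a mean PSI of 5 to 95% were tested with limma 3.58.1 in R 4.3.3. The fit used logit-transformed reads with 0.5 added and precision weights with a variance floor of 0.01. Because RPKM came without replicates, exon-exon junction reads were summed per gene, scaled by median of ratios and tested on log2 CPM with a prior count of 2, where the mean was 20 reads or more. Both fits took all 12 libraries with 1 coefficient per group, and p-values were adjusted by Benjamini-Hochberg over all events or genes. The tests were run on simulated data first.

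Events and genes were sorted by their calls in induced against control, knockdown against control and induced against knockdown. Named were, per class and direction, up to 8 called events (at least 20 reads in each mEx5 library, 1 per gene) and 8 genes with the largest change and no overlap of libraries, the 5 largest differences between lines, and the top members of each list. Other list members and the Pstk, Sept8 and list-gene events are examples chosen after their values were seen. Members, lists and tests were chosen with earlier results of these data known. A table of the authors' group PSI was not used. Alternatives changed the weights, PSI range, read minimum, pseudocount, size threshold, scaling, libraries (TMM was computed in R) and block. Some genes and a sequence are not reported here, though list counts include the genes.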

Additional observations from a re-analysis of the deposited data

Results flagged for a closer look

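The change from control to induced differed between the mEx5 and pEx5 lines, by the limma test of that difference (adjusted p under 0.05), in the following events and genes; values are the mEx5 change minus the pEx5 change. In PSI points the difference was -84.53 for Puf60 exon 5, whose reads include those of the cDNAs, -33.33 for the Atpbd4 exon, -38.34 for the 195-nt Ccdc136 exon and 33.66 for the Elavl2 exon. It was -46.46 for a 3′ splice site of Tnip1 and -43.19 for a 5′ splice site of Vkorc1l1, and neither was called in mEx5 itself. It was 43.06 for the Pstk exon and 39.92 for the Sept8 3′ splice site.

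Among genes named for remaining lower, Taz differed by -0.97 on the log2 scale. Among those that overshot, Ddx39 differed by -0.39, Mus81 by -0.46, Parp3 by -0.91 and Cxxc1 by -0.33. D730048I06Rik differed by -1.77. Of the 5 largest differences between lines, all but that of D730048I06Rik were in genes not called in mEx5 and called higher with induction in pEx5. These genes were Cyp2c65 at -3.79, Slc22a18 at -2.02, Espnl at -2.01 and Cacna1h at -1.63. The pEx5 control levels of Cyp2c65 and Espnl were as low as 0.0246 CPM, so the size of their differences depends on the prior count. By group RPKM, Cacna1h in pEx5 was at 0.28 in control and 0.27 in induced cells. 

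In the integrated stress response list the differences were 0.72 for Trib3, 0.64 for Gdf15, 0.68 for Ddit3, 0.40 for Chac1, 0.33 for Sesn2, 0.52 for Ppp1r15a, 0.25 for Mthfd2 and 0.37 for Atf4. In other lists they were 0.34 for Lss, 0.61 for Gadd45a, -0.40 for U2af1l4, -0.35 for Slc18a2, 0.32 for Dnaja3, 0.57 for Vegfa, -0.43 for Hsf1 and -0.36 for Tubb3.

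The difference between the lines was called without any 1 of the mEx5 control and induced libraries for Puf60 exon 5, Elavl2, Pstk, Sept8, Taz, Ddx39, Parp3, Cyp2c65, Slc22a18, Trib3, Ddit3 and Atf4. Each of the others named here lost its call in at least 1 of these 4 fits; Ccdc136, Vkorc1l1, Espnl and U2af1l4 lost it in all 4.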

How the results depend on the processing

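No named event and no named or called list gene changed direction. For the named events and the named and called list genes, 337 of 525 and 1804 of 2021 alternative values stayed past the threshold. Counts below are given in the order induced against control, knockdown against control, induced against knockdown, difference between lines, remaining away, overshooting and changed with induction only. For events they were 318, 2939, 2367, 118, 178, 6 and 67. With no limit on mean PSI they were 65, 1429, 967, 12, 38, 1 and 14, and in an unweighted fit with no limit, chosen after seeing the data, 7, 1077, 529, 1, 4, 0 and 2. An unweighted fit changed the first and the last 4 counts, to 24, 2, 17, 0 and 3, with 3762 events at an unadjusted p under 0.05; 20 of its 24 calls were among the 318. A threshold of 15 points gave 184, 1935, 1519, 107 remaining away and 30 with induction only. The mEx5 libraries alone gave 186, 116 remaining away, 3 overshooting and 35 with induction only. Leaving out 1 library gave 56 to 311, 2014 to 2979, 1552 to 2350, 51 to 110, 44 to 163, 0 to 5 and 7 to 48. Keeping only introns with balanced junction reads, also chosen after seeing the data, left 251 of the 318.

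For genes the counts were 2200, 3715, 2666, 443, 1327, 70 and 421, with 138 in the lists. A change of at least 1.5-fold gave 399, 832, 430, 122, 235, 1 and 41, with 30 in the lists, and 75.4% of its 399 calls were higher against 49.4% of the 2200. The mEx5 libraries alone gave 39 overshooting. Leaving out 1 library gave 1190 to 2346, 2610 to 3928, 1867 to 2490, 121 to 519, 730 to 1181, 20 to 73 and 223 to 441, with 96 to 146 in the lists; stress response genes higher were 28 to 29, cholesterol genes lower 12 to 18 and S-phase genes lower 14 to 20. Other scalings moved the median change of all genes from -0.0018 to at most 0.0156, which is a change of sign. Scaling by total junction reads called 1194 genes higher and 949 lower, against 1086 and 1114 in the main fit. The cause of these changes was not tested.

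Libraries share replicate letters, and the main fit did not pair by letter. Deviations of same-lettered libraries had correlations of -0.04 to 0.202 over genes, the highest between mEx5 control and knockdown. These values cannot show whether the letters mark shared cultures. With a replicate block 253 events and 2264 genes were called, and 3 events overshot. Events on few reads, such as Lrdd and Arpp21 (from 20 reads), are limited by depth.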
